A study of Mus musculus with 8 samples.

Results

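The miR-29 family was followed across 8 mouse sperm small RNA libraries. It was defined by name, as every miRNA row of the deposited count table whose stem was mmu-miR-29a, mmu-miR-29b or mmu-miR-29c, with any arm suffix. This gave 7 of 956 miRNA rows, in a table of 45082 features once rows had been combined by name and type and features without counts dropped. They were mmu-miR-29a-3p, miR-29a-5p, miR-29b-3p, miR-29b-1-5p, miR-29b-2-5p, miR-29c-3p and miR-29c-5p. The libraries came from 4 ethanol samples and 4 control samples of sperm, collected in a design on the cessation of alcohol. The labels give no strain, age, ethanol dose or exposure length for either group, and they do not say whether each library came from a separate animal, so the p-values measure the spread between these libraries, which may be technical.

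MicroRNAs are cut by Dicer from a hairpin precursor into a 5p and a 3p strand, and 1 strand is usually loaded into an Argonaute protein, where its seed pairs with target mRNAs. In the miR-29 family the 3p strand is the usual guide. It is best known for repressing collagens and other extracellular matrix genes, as in the mouse heart, and for repressing the de novo DNA methyltransferases DNMT3A and DNMT3B, as in human lung cancer cells. Maturing sperm take up small RNAs, including miRNAs, from the epithelium of the epididymis.

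All 7 mature sequences were found in RefSeq (GRCm38.p6) and are shown because the arms differ in what they could pair with. Capitals mark the seed, bases 2 to 8 counted from the 5′ end.
miR-29a-3p: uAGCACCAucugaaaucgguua
miR-29b-3p: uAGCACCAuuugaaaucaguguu
miR-29c-3p: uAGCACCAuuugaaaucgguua
miR-29a-5p: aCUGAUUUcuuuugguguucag
miR-29b-1-5p: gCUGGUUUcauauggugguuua
miR-29b-2-5p: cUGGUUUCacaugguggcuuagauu
miR-29c-5p: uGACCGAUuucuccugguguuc
The 3p arms carried 1 seed, which no other name among the 1679 mature mouse miRNAs of that table shared. With positions counted from the 5′ end, miR-29c-3p differed from miR-29a-3p by C10U alone. miR-29b-3p differed from miR-29a-3p by C10U, G18A, U21G and A22U, the last base of miR-29b-3p lying beyond the end of the shorter strand. A read that carries a mismatch at base 10, or that lacks its 3′ end, can therefore be assigned to the wrong member, and the sources used here do not say how such reads were counted. The 5p arms had 4 different seeds, and the seed of miR-29b-2-5p was shared with miR-6338.

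The family has 4 hairpins in 2 gene pairs (GRCm38.p6). Mir29a (chr6:31062660-31062747) and Mir29b-1 (chr6:31063023-31063093) lie 275 bases apart on the minus strand, Mir29b-1 within an exon of the lincRNA Gm27019 in the GENCODE M21 annotation. Mir29b-2 (chr1:195037040-195037120) and Mir29c (chr1:195037547-195037634) lie 426 bases apart on the plus strand, in exons of the processed transcript A330023F24Rik and opposite an exon of Cd46. The miR-29b hairpins are shown because both hold the same 3p arm, in capitals, so that counts of miR-29b-3p cannot be divided between the chromosomes.
Mir29b-1: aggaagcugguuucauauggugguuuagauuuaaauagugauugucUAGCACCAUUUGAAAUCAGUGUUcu
Mir29b-2: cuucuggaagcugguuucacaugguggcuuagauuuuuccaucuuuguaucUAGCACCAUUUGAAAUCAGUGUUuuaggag
The 5p arms of these hairpins differ, and among the mature arms only they could tell the loci apart.

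Summed counts ran from 3481865 to 6975180 in ethanol libraries and from 4365887 to 4921827 in control libraries. MicroRNAs made up 6.23% to 9.90% of the counts in ethanol libraries, against 16.3% to 26.7% in control libraries, without overlap. Ethanol replicate 2 stood apart: it was the shallowest, exons of mRNAs held 29.3% of its counts against 6.94% to 9.73% in the other ethanol libraries and 5.08% to 5.81% in control libraries, and its summed CPM of epididymal epithelium transcripts was 11060, against 908 to 2638 in the other ethanol libraries and 399 to 716 in control libraries. CPM are counts scaled to a library total of 1000000 after TMM scaling in edgeR. Sperm and spermatid transcripts were detected in every library, with summed CPM of 262 to 738 in ethanol libraries and 670 to 862 in control libraries. In bulk sperm RNA, fewer cells of a type and less RNA per cell cannot be told apart.

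The 3p arms had 177 counts or more in every library but for 1 listed 0, while no 5p arm exceeded 10 counts in a library. mmu-miR-29a-3p, the most abundant member, had 8554, 0, 12269 and 6913 counts in ethanol replicates 1 to 4, against 5632, 13209, 9542 and 10205 counts in control replicates 1 to 4. The 0 of ethanol replicate 2 is doubtful. The same library held 959 counts of miR-29b-3p and 177 counts of miR-29c-3p, and of the 124 miRNA rows whose median exceeded 100 counts, 23 were listed at 0 in at least 1 library, 4 of them in ethanol replicate 2. A count of 0 there would allow up to 3 counts, or 0.631 CPM (counting error only). Levels of miR-29a-3p are therefore given with and without that library.

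In CPM, mmu-miR-29a-3p was at 1256, 0, 2314 and 1196 in ethanol replicates 1 to 4, against 1474, 3416, 2382 and 2839 in control replicates 1 to 4. It averaged 1589 ± 629 CPM over the ethanol libraries with a count (SD, n = 3) and 2528 ± 820 CPM over control libraries (SD, n = 4). Ethanol replicates 1 and 4 lay below every control library, and ethanol replicate 3 lay within the control range. mmu-miR-29b-3p was at 254, 202, 761 and 283 CPM in ethanol replicates 1 to 4, against 488, 1155, 838 and 673 CPM in control replicates 1 to 4. Its means were 375 ± 260 CPM in ethanol libraries and 789 ± 283 CPM in control libraries (SD, n = 4 each), with ethanol replicate 3 again alone inside the control range. mmu-miR-29c-3p, the least abundant of the 3, was at 46.6, 37.3, 206 and 116 CPM in ethanol replicates 1 to 4, against 75.1, 265, 127 and 169 CPM in control replicates 1 to 4. Its means were 102 ± 78.1 CPM in ethanol libraries and 159 ± 80.6 CPM in control libraries (SD, n = 4 each), and ethanol replicates 1 and 2 lay below every control library. The order miR-29a-3p, miR-29b-3p, miR-29c-3p held in all 4 control libraries and in the 3 ethanol libraries with a count of miR-29a-3p.

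**Figure D1:**
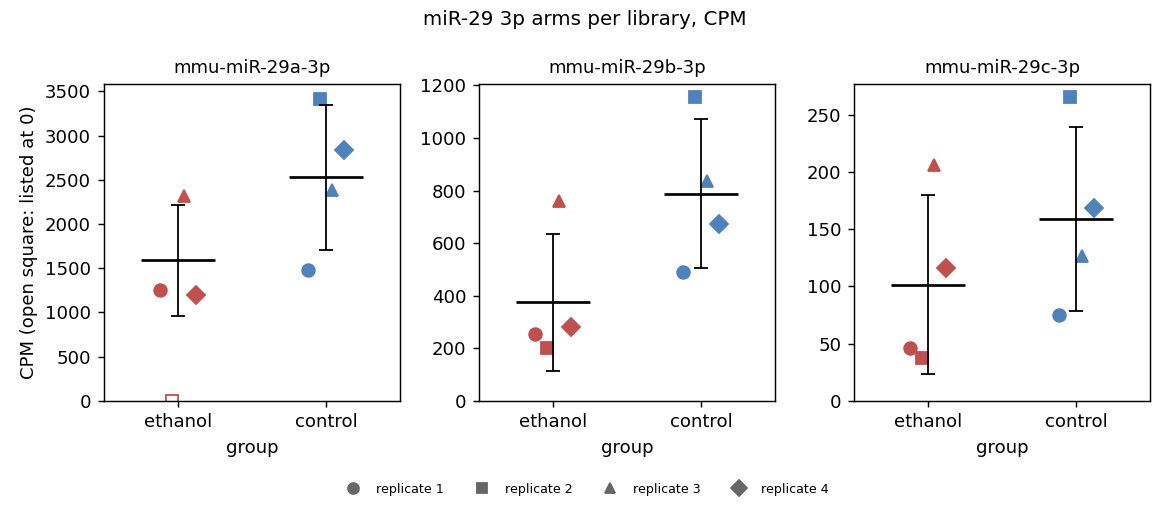
CPM of the 3 miR-29 3p arms in each library (y axis, linear, a scale of its own per arm), with ethanol libraries left of control libraries on the x axis, the marker shape giving the replicate number, the bar the mean and the whisker the SD. The open square is miR-29a-3p listed at 0 in ethanol replicate 2, which its mean leaves out. Ethanol replicate 3 is the highest ethanol library in each panel and lies inside the control range, while ethanol replicate 1 lies below all 4 control libraries.

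No member passed the test between ethanol and control. edgeR's quasi-likelihood test, adjusted by Benjamini-Hochberg over all 13515 features tested, put miR-29a-3p at -1.08 ± 1.28 (log2 fold change ± SE; adjusted p = 0.574), and its 95% interval of -3.59 to 1.42 was widened by the doubtful 0. With ethanol replicate 2 left out, the value was -0.73 ± 0.43 (edgeR adjusted p = 0.272). miR-29b-3p had the smallest p of the family, with -1.07 ± 0.51 (edgeR, unadjusted p = 0.0524, adjusted p = 0.156), and miR-29c-3p had -0.65 ± 0.57 (edgeR adjusted p = 0.432). Among all features tested 13.6% passed the threshold of 0.05 (1842 of 13515), and among miRNAs 39.8% did (90 of 226), of which 89 were lower in ethanol. The family's count of 0 of 3 stands beside that share, which itself rested on every control library: with any 1 of them left out, 1 miRNA passed. At an unadjusted p under 0.05 the count was also 0, and so it was by DESeq2 and limma-voom at the adjusted threshold.

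The call on miR-29b-3p turned on 1 library. Without ethanol replicate 3, which held the most miR-29 3p counts of the ethanol libraries, miR-29b-3p was at -1.79 ± 0.47 and passed (edgeR adjusted p = 0.0105), miR-29c-3p was at -1.35 ± 0.53 (edgeR adjusted p = 0.0621) and miR-29a-3p at -1.71 ± 1.92 (edgeR adjusted p = 0.524). In that fit 65.8% of miRNAs passed (158 of 240). The labels name ethanol replicates 1 and 2 with the prefix POM and ethanol replicates 3 and 4 with POEM, against POCM in every control library. What these prefixes mean is not stated. With ethanol replicates 3 and 4 both left out, miR-29b-3p (-1.94, edgeR adjusted p = 0.0256) and miR-29c-3p (-2.06, edgeR adjusted p = 0.0188) passed, as did 57.8% of miRNAs (155 of 268). With ethanol replicates 1 and 2 left out instead, none passed, and the values were -0.57 for miR-29a-3p, -0.66 for miR-29b-3p (edgeR adjusted p = 0.451) and -0.02 for miR-29c-3p (edgeR adjusted p = 0.986). Without ethanol replicate 2 the miR-29b-3p value was -0.93 ± 0.45 (edgeR adjusted p = 0.180) and that of miR-29c-3p -0.42 ± 0.46 (edgeR adjusted p = 0.585), with 37.2% of miRNAs called (92 of 247).

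The members' values lay above those of the median miRNA. The median log2 fold change of the 226 miRNAs tested was -1.52, and 205 of them were negative. Of these 226 miRNAs, 158 had a lower value than miR-29a-3p, 160 a lower value than miR-29b-3p and 193 a lower value than miR-29c-3p. Without ethanol replicate 2, 198, 184 and 215 of 247 miRNAs had a lower value than miR-29a-3p, miR-29b-3p and miR-29c-3p, in that order, beside a median of -1.41.

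**Figure D2:**
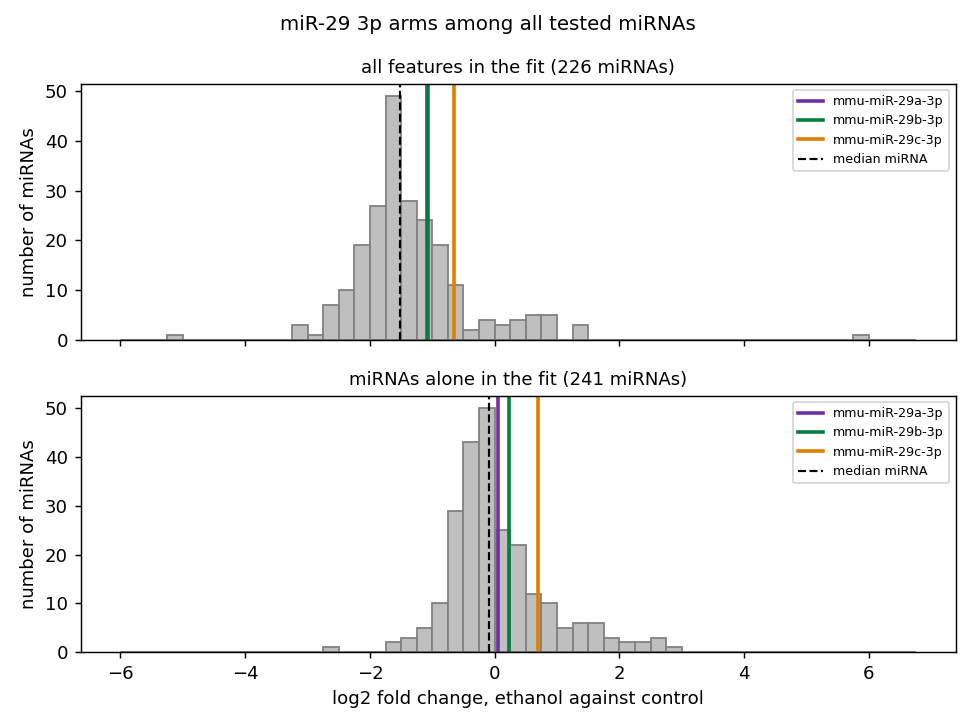
Histograms of the log2 fold change of ethanol over control (x axis) for all miRNAs tested (y axis, number of miRNAs), in the fit over all features and in the fit over miRNAs alone, with the 3 miR-29 3p arms as coloured lines and the median miRNA as a dashed line. The members lie to the right of the median in both panels. That median is -1.52 over all features and -0.0957 with miRNAs alone.

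Within the miRNA pool the members had positive differences in place of negative ones. With miRNAs alone in the fit, so that each library was scaled to its own miRNAs, the log2 fold change was 0.06 ± 1.43 for miR-29a-3p (edgeR adjusted p = 0.996), 0.23 ± 0.28 for miR-29b-3p (edgeR adjusted p = 0.876) and 0.69 ± 0.43 for miR-29c-3p (edgeR adjusted p = 0.634). None passed, and 0.415% of miRNAs did (1 of 241). With ethanol replicate 2 also left out, miR-29a-3p was at 0.50 ± 0.32, with a 95% interval of -0.13 to 1.13 (edgeR adjusted p = 0.768). The direction of each member's difference thus depends on whether the scale is all RNA counted or miRNAs alone, and the share of miRNAs in a library moved with the groups.

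Scaled to 1000000 miRNA counts in each library, which is called miRNA CPM here, miR-29a-3p was at 13280, 0, 17760 and 17370 in ethanol replicates 1 to 4, against 6955, 11310, 12370 and 12740 in control replicates 1 to 4. The 3 ethanol libraries with a count all lay above every control library, and averaged 16140 ± 2485 (SD, n = 3) against 10840 ± 2662 in control libraries (SD, n = 4). Their margin was small, since the 95% Wilson interval of the lowest ethanol library was 13000 to 13560 and that of the highest control library 12500 to 12990 (counting error only). With ethanol replicate 2 left out, 8.41% of the 226 miRNAs lay above every control library in this measure (19 of 226). By count, miR-29a-3p ranked 15 or 16 among miRNAs in these 3 ethanol libraries, against 17 to 23 in control libraries. Doubtful 0s of other abundant miRNAs move these ranks, such as miR-19b-3p in ethanol replicate 1 and miR-15b-5p in ethanol replicate 3. In control replicate 2, let-7a-5p and let-7c-5p are listed at 0. How many other miRNAs differed in rank between the groups without overlap was not counted. miR-29b-3p was at 2679, 4418, 5838 and 4106 miRNA CPM in ethanol replicates 1 to 4, against 2304, 3826, 4348 and 3021 in control replicates 1 to 4, and the groups overlapped. miR-29c-3p was at 492, 816, 1582 and 1689 miRNA CPM in ethanol replicates 1 to 4, against 354, 879, 657 and 758 in control replicates 1 to 4. Ethanol replicates 3 and 4 were above every control library for miR-29c-3p, and replicates 1 and 2 lay inside the control range.

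**Figure D3:**
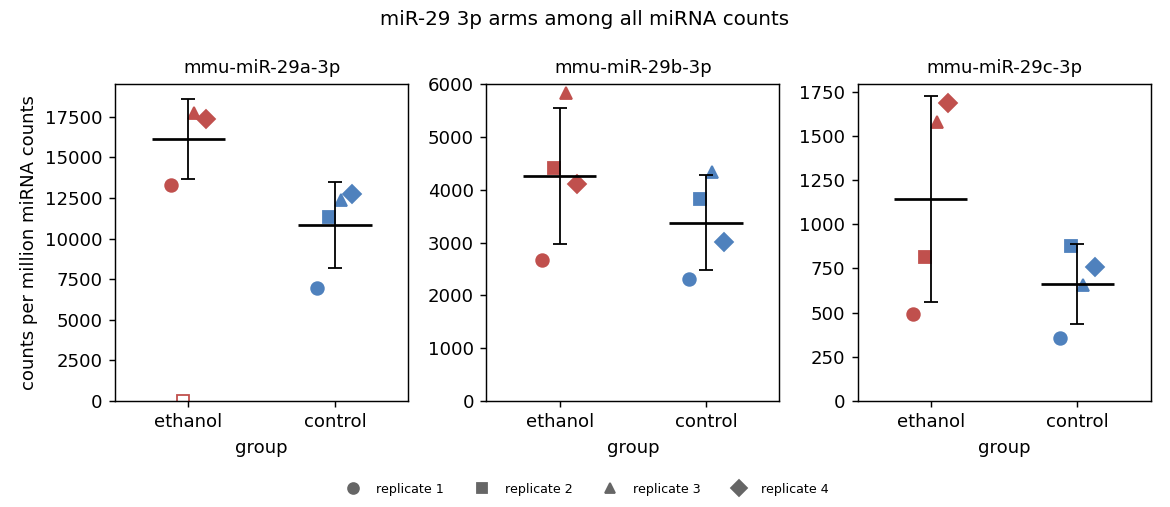
Counts of the 3 miR-29 3p arms scaled to 1000000 miRNA counts in each library (y axis, linear, a scale of its own per arm), with ethanol left of control, bars for the mean and whiskers for the SD; the open square is miR-29a-3p listed at 0 in ethanol replicate 2, left out of its mean. For miR-29a-3p the 3 filled ethanol points, 13280 to 17760, lie above the control points, 6955 to 12740. The groups overlap for miR-29b-3p and miR-29c-3p.

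The makeup of the family was similar in range in both groups. Of the 3p counts, miR-29a-3p held 75.4 ± 5.11% in ethanol libraries (SD, n = 3, replicate 2 left out) and 72.8 ± 2.95% in control libraries (SD, n = 4). miR-29b-3p held 19.1 ± 3.64% in ethanol libraries and 22.8 ± 3.05% in control libraries, and miR-29c-3p 5.52 ± 2.25% in ethanol libraries and 4.39 ± 0.837% in control libraries. Ratios between members are free of the scaling between libraries. The ratio of miR-29b-3p to miR-29a-3p was 0.202, 0.329 and 0.236 in ethanol replicates 1, 3 and 4, against 0.331, 0.338, 0.352 and 0.237 in control replicates 1 to 4. All 3 ethanol values lay below the highest 3 control values, and control replicate 4 lay among the ethanol values. The means were 0.256 ± 0.0656 in ethanol libraries and 0.315 ± 0.0523 in control libraries, a log2 difference of -0.31 (two-sided exact permutation p = 0.114, 0.342 adjusted over the 3 ratios; the smallest p possible is 0.0571 with 35 assignments).

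The ratio of miR-29c-3p to miR-29a-3p was 0.0371, 0.0891 and 0.0972 in ethanol replicates 1, 3 and 4, against 0.0510, 0.0777, 0.0531 and 0.0595 in control replicates 1 to 4. The ethanol values lay on both sides of the control range (log2 difference 0.20, two-sided exact permutation p = 0.629, adjusted 0.629). The ratio of miR-29b-3p to miR-29c-3p could be formed in all 8 libraries. It was 5.44, 5.42, 3.69 and 2.43 in ethanol replicates 1 to 4, against 6.50, 4.35, 6.62 and 3.99 in control replicates 1 to 4, with a log2 difference of -0.37 (two-sided exact permutation p = 0.343, adjusted 0.515; the smallest p possible is 0.0286 with 70 assignments). The ranges of the groups overlapped in all 3 ratios.

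**Figure D4:**
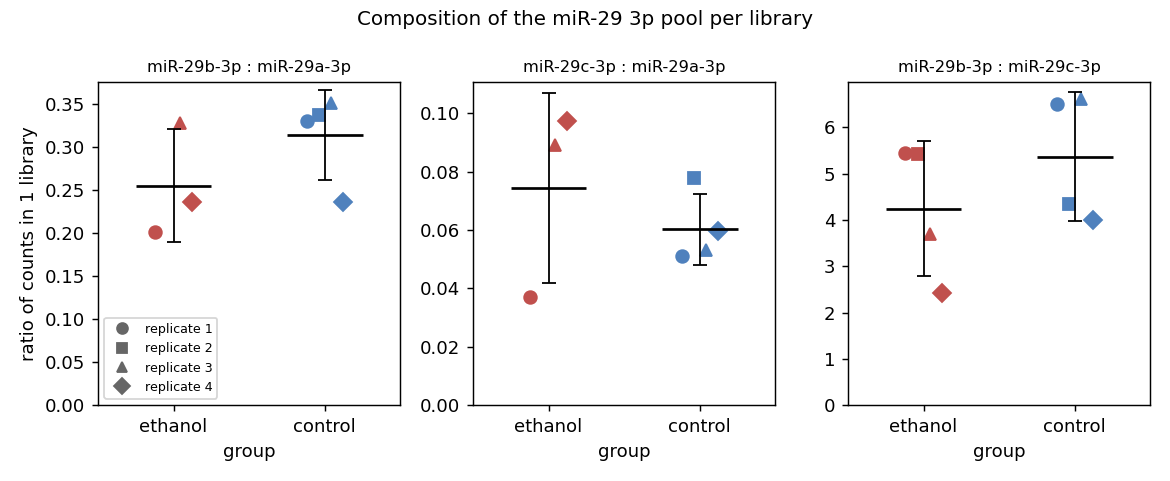
Ratios of counts between miR-29 3p arms in each library (y axis), with ethanol left of control; miR-29b-3p to miR-29a-3p and miR-29c-3p to miR-29a-3p have 3 ethanol points, since replicate 2 lists miR-29a-3p at 0. The groups overlap in every panel, with means of 0.256 in ethanol and 0.315 in control libraries for miR-29b-3p to miR-29a-3p.

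The 5p arms were near the limit of counting, and none passed the filter on low counts. Together they had 7, 7, 5 and 4 counts in ethanol replicates 1 to 4, against 11, 21, 6 and 6 counts in control replicates 1 to 4. miR-29b-2-5p, the passenger strand made only from Mir29b-2, had 0, 0, 1 and 0 counts in ethanol replicates 1 to 4, against 1, 3, 2 and 3 counts in control replicates 1 to 4. In a fit without the filter its value was -3.09 ± 1.27 on the log2 scale and did not pass (edgeR adjusted p = 0.127). miR-29b-1-5p, from the other locus, had 2, 0, 0 and 1 counts in ethanol replicates 1 to 4 and the same 2, 0, 0 and 1 counts in control replicates 1 to 4. miR-29c-5p had 2, 2, 0 and 1 counts in ethanol replicates, against 1, 10, 2 and 0 counts in control replicates, and miR-29a-5p 3, 5, 4 and 2 counts in ethanol replicates, against 7, 8, 2 and 2 counts in control replicates. Differences between groups in these arms were not detectable at this depth.

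Rows under a precursor name, which are not members, were also sparse. The miRNA row named mir-29c had 13, 0, 12 and 6 counts in ethanol replicates 1 to 4, against 0, 1, 0 and 2 counts in control replicates 1 to 4. In the fit without the filter it was at 2.64 ± 0.88 on the log2 scale (edgeR adjusted p = 0.0397), where 16.9% of miRNA rows were called (161 of 952) and 0.945% were higher in ethanol (9 of 952). It was the only miR-29 row called in that fit, and the sources used here do not say what separates such a row from the mature rows. With miRNAs alone in the fit and ethanol replicate 2 left out, the mir-29c row was at 4.11 ± 0.83 and did not pass (edgeR adjusted p = 0.1045). The hairpin row of the same name had 14, 0, 16 and 10 counts in ethanol replicates, against 4, 8, 6 and 8 counts in control replicates (0.07 ± 0.56 without the filter, edgeR adjusted p = 0.960). The hairpin row named mir-29b-2 had 3, 2, 0 and 3 counts in ethanol replicates 1 to 4, against 0 in every control library. Without the filter it was at 3.85 ± 1.65 and did not pass (edgeR adjusted p = 0.155), opposite in sign to miR-29b-2-5p.

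The miRNAs whose level moved most like the members across libraries were given as a description, by Pearson correlation of log2(CPM + 2), over libraries that share depth and scaling, and including the difference between groups. For miR-29a-3p they were miR-31-3p (r = 0.95), miR-339-5p (r = 0.947) and its neighbour in the family miR-29b-3p (r = 0.941), over the 7 libraries with a count. For miR-29b-3p they were miR-126a-5p, an endothelial miRNA (r = 0.966), the row named mir-101b (r = 0.95) and miR-22-3p (r = 0.944), over 8 libraries. For miR-29c-3p they were miR-126a-5p (r = 0.936), miR-31-3p (r = 0.909) and mir-101b (r = 0.898), over 8 libraries. Of these, miR-22-3p was lower in ethanol (-1.62 ± 0.49 on the log2 scale, edgeR adjusted p = 0.0417), and it no longer passed with miRNAs alone in the fit (-0.27, edgeR adjusted p = 0.756). The others did not pass in the fit over all features, with log2 fold changes of -1.21 for miR-31-3p, -0.95 for miR-339-5p, -1.10 for miR-126a-5p and -0.98 for mir-101b. Without ethanol replicate 3 all 4 passed, at -2.55 for miR-31-3p (edgeR adjusted p = 0.0057), -1.32 for miR-339-5p (0.0359), -1.97 for miR-126a-5p (0.00803) and -1.45 for mir-101b (0.0292).

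Fragments of mRNAs targeted by miR-29 were counted in the same libraries. They are pieces of exons in a small RNA library and do not measure mRNA levels, and 23.8% of the 6545 mRNA exon features were higher in ethanol (1560) and 0.153% lower (10), with a median log2 fold change of 0.88. Of 17 genes of the DNA methylation machinery 12 were tested, with a median log2 fold change of 0.59.

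Among the methyltransferases, Dnmt3a, a described miR-29 target, had 35, 36, 51 and 45 counts in ethanol replicates 1 to 4, against 10, 30, 21 and 28 counts in control replicates 1 to 4. In CPM the groups overlapped, at 7.53 ± 1.84 in ethanol libraries and 5.85 ± 2.46 in control libraries (SD, n = 4 each), or 0.36 ± 0.39 on the log2 scale (edgeR adjusted p = 0.532). Dnmt1, the maintenance enzyme, which miR-29 lowers indirectly in human leukaemia cells, had 25, 62, 32 and 41 counts in ethanol replicates 1 to 4, against 18, 7, 13 and 13 counts in control replicates 1 to 4 (1.14 ± 0.44 on the log2 scale, edgeR adjusted p = 0.0912). Dnmt1 passed without ethanol replicate 1 (1.38, edgeR adjusted p = 0.0454) and was at 0.68 without ethanol replicate 2 (edgeR adjusted p = 0.252). Dnmt3b, the other described target among them, had 1 to 5 counts per library in both groups, and Dnmt3l, its catalytically inactive partner in germ cells, 0 to 2 counts in ethanol libraries and 0 to 1 counts in control libraries, so that neither was tested.

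Of 30 extracellular matrix targets 12 were tested and 0 were called in either direction by edgeR, with 11 of 12 log2 fold changes below 0 and a median of -0.74, against 0.88 for all mRNA exon features. At an unadjusted p under 0.05, 3 of the 12 passed, the collagen chains Col1a1 and Col6a2 and the collagen chaperone Serpinh1, named after their values were seen (log2 fold changes of -1.23, -1.13 and -1.12), beside 1.31% of mRNA exon features that were lower in ethanol at that p (86 of 6545). The count of 0 depended on the setting: by edgeR, 3 matrix targets were lower in ethanol without ethanol replicate 4, 1 without ethanol replicate 3, 7 without ethanol replicates 3 and 4, 3 with the replicate number as a block and 1 without the filter, and by DESeq2 3 were. The calls over all features moved too, to 1057, 3569, 3317, 3294, 3451 and 3144 in that order, against 1842 in the main fit. The share of mRNA exon features lower in ethanol in each of these settings is not given here. Col1a2, a chain of type I collagen, averaged 7.22 ± 4.80 CPM in ethanol libraries and 11.8 ± 1.42 CPM in control libraries (SD, n = 4 each; -0.71 ± 0.41, edgeR adjusted p = 0.232). Without ethanol replicate 4, Col1a2 was at -1.34 (edgeR adjusted p = 0.0484). Lamc1, a laminin chain, averaged 9.29 ± 3.5 CPM in ethanol libraries and 7.96 ± 2.35 CPM in control libraries, or 0.22 ± 0.37 on the log2 scale (edgeR adjusted p = 0.711), and was at -0.04 without ethanol replicate 2 and -0.06 without control replicate 1. Stromal marker transcripts, of which 0 of 6 tested were called, had summed CPM of 24.5 to 64.0 in ethanol libraries and 36.7 to 145 in control libraries, and their part in the collagen values was not tested.

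Of 29 other described targets 18 were tested, and 2 were higher in ethanol and 0 lower, with a median of 0.34. Cdc42, a small GTPase, averaged 20.9 ± 10.3 CPM in ethanol libraries and 7.95 ± 2.16 CPM in control libraries (SD, n = 4 each; 1.39 ± 0.40, edgeR adjusted p = 0.0374). Insig1, a brake on cholesterol synthesis, averaged 11.5 ± 11.2 CPM in ethanol libraries and 2.48 ± 0.311 CPM in control libraries (2.18 ± 0.57, edgeR adjusted p = 0.0304). Among 15 genes of miRNA biogenesis and Argonaute proteins 13 were tested, and Xpo5, the exporter of precursor miRNAs, was the only one called (22.1 ± 23.1 CPM in ethanol libraries, 4.70 ± 1.65 CPM in control libraries, 2.22 ± 0.60, edgeR adjusted p = 0.0323). Without ethanol replicate 2 all 3 still passed, at lower log2 fold changes of 1.12 for Xpo5, 1.2 for Insig1 and 0.93 for Cdc42, and 14.0% of mRNA exon features were higher in ethanol. Cdc42 did not pass without ethanol replicate 4 (edgeR adjusted p = 0.0643), with DESeq2's size factors in edgeR (adjusted p = 0.0514) or at a minimum count of 50 (edgeR adjusted p = 0.0509). None of the 3 passed by limma-voom or when any 1 control library was left out. Without ethanol replicates 1 and 2 none of the 3 passed either (edgeR adjusted p = 0.167 for Xpo5, 0.126 for Insig1 and 0.0792 for Cdc42). Each share of calls, 2 of 18 and 1 of 13, was below that of all mRNA exon features.

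Calls among cell markers differed from list to list, and some lists had none. Features without a count in any library had been dropped, so every marker left had a count in at least 1 library. Among transcripts of the epididymal epithelium, 7 of 8 tested were higher in ethanol, with summed CPM of 908 to 11060 in ethanol libraries and 399 to 716 in control libraries. Of all mRNA exon features, 23.8% were higher in ethanol and 0.153% lower. For blood and immune transcripts, 1 of 6 tested was higher and 2 lower in ethanol, with sums of 14.5 to 55.1 CPM in ethanol libraries and 33.8 to 62.6 CPM in control libraries, and of the sperm and spermatid transcripts 0 of 14 were called, all with values below 0. Among miRNAs, 4 of 4 red blood cell markers, 3 of 5 white blood cell markers, 5 of 7 muscle and stromal markers and 5 of 10 male germ cell markers were lower in ethanol, beside 39.4% of the miRNAs tested, and 0 of 6 epithelial markers were called. Without ethanol replicate 2 these counts were 1, 2, 2 and 5 for the red blood cell, white blood cell, muscle and stromal, and germ cell miRNAs, and 7 for the epididymal transcripts. In that fit 37.2% of miRNAs passed in either direction, and 14.0% of mRNA exon features were higher in ethanol. The epididymal count was 3 without ethanol replicates 1 and 2, where calls over all features fell from 1842 to 818. With any 1 control library left out, 0 epididymal and 0 blood and immune transcripts were called, beside 10 or fewer of all features. The share of mRNA exon features higher in ethanol in these settings is not given here. Muscle and stromal miRNAs summed to 1370 to 6058 CPM in ethanol libraries and 3434 to 49260 CPM in control libraries, red blood cell miRNAs to 40.8 to 134 CPM in ethanol libraries and 111 to 1436 CPM in control libraries. White blood cell miRNAs summed to 36.4 to 212 CPM in ethanol libraries and 276 to 482 CPM in control libraries, germ cell miRNAs to 1624 to 8506 CPM in ethanol libraries and 7091 to 11350 CPM in control libraries, and epithelial miRNAs to 1135 to 3937 CPM in ethanol libraries and 1452 to 4833 CPM in control libraries. These sums hold abundant miRNAs listed at 0 in some libraries, miR-142a-5p among the white blood cell markers, miR-449a-5p among the germ cell markers and miR-141-3p among the epithelial ones. Without them, the white blood cell sums were 19.5 to 66.4 CPM in ethanol libraries and 75.9 to 390 CPM in control libraries, the germ cell sums 1558 to 8109 CPM in ethanol libraries and 6889 to 11350 CPM in control libraries, and the epithelial sums 1135 to 3937 CPM in ethanol libraries and 1452 to 4322 CPM in control libraries, a check added after the data were seen. Since miR-29 is also made by stromal and blood cells, the part of these cells in its level was not tested.

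**Figure D5:**
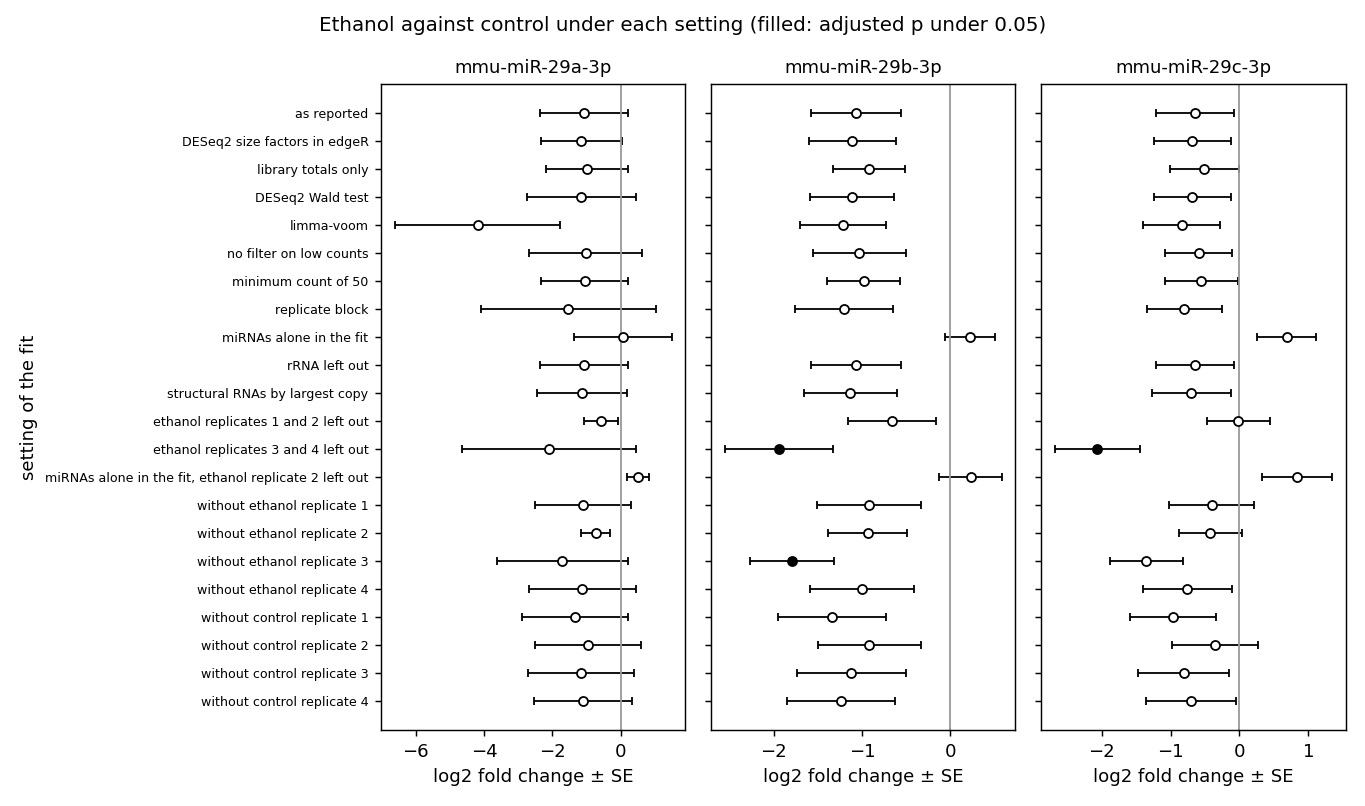
Log2 fold change of ethanol over control (x axis, points with SE as whiskers, a scale of its own per arm) for each miR-29 3p arm under each processing setting (y axis), filled where the adjusted p is under 0.05. All 3 arms lie below 0 in the fits over all features and above 0 in the fits with miRNAs alone, and the filled points are miR-29b-3p without ethanol replicate 3 and miR-29b-3p and miR-29c-3p without ethanol replicates 3 and 4.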

How the data were processed

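Per the labels' protocols, sperm RNA was prepared with Trizol and sequenced as Qiaseq small RNA libraries. The deposited values are raw counts, whole numbers for every annotated feature in each of 8 libraries, in 1 table of the authors that records no normalisation. Which aligner, build, counting rule and molecular identifiers were used was not given in the sources used here. Groups and replicate numbers came from the sample titles, and every library is 1 sample. Pairs of libraries of a group differed by 11.7 to 189 times the chi-square expected from sampling, so none was counted as a duplicate.

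Rows of the same name and type were summed, except that a piRNA cluster kept only its row with the most counts. Features without a count in any library were dropped (1078961 rows, 45082 features, 14 classes). The main test was the robust quasi-likelihood fit of edgeR 4.0.16 (R 4.3.3), with group alone as a term, TMM factors and filterByExpr at a minimum count of 10. Benjamini-Hochberg adjustment ran over 13515 features, with a threshold of 0.05. SE is the absolute log2 fold change divided by the square root of F. limma 3.58.1 and DESeq2 1.42.0 served as alternatives. Ratios were compared by exact permutation tests over all assignments of libraries to groups. Wilson intervals were computed in scipy 1.17.1. The fit was run on counts simulated with a common dispersion and without an outlying library, so that run does not cover libraries that stand apart. Sequences were read from RefSeq and matched by name. Floors and intervals cover counting error only.

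The members and lists were chosen with earlier results of these data known. Outside the family, the genes named were the called list members, the 2 of highest CPM in a list without calls, the miRNA rows named after precursors, Dnmt1 and Dnmt3a, and the 3 miRNAs most correlated with each member. Epithelial miR-200c-3p, white blood cell miR-142a-3p and muscle miR-206-3p were not analysed here. A result on the DNA methylation list is not reported here. Closely similar genes and overlapping transcripts can share counts.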

Additional observations from a re-analysis of the deposited data

Results flagged for a closer look

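In a group of 4 libraries, a value was picked out where its gap to the nearest other was large against the group's whole range, by Dixon's 95% criterion. Chance picks out about 5% of such groups, and 74 were examined. Each value picked out was in an ethanol library. Among the family, miR-29b-2-5p was at 0.189 CPM in ethanol replicate 3, which is 1 count beside 0 in the other 3 libraries, and miR-29b-3p was at 761 CPM in ethanol replicate 3, beside 202 to 283 CPM in the others. Ethanol replicate 3 also stood highest for miR-31-3p at 3.96 CPM and for miR-339-5p at 6.79 CPM. Ethanol replicate 2 stood highest for Insig1 at 28.0 CPM, Cdc42 at 36.2 CPM, Xpo5 at 56.4 CPM and the summed transcripts of the epididymal epithelium at 11060 CPM. Ethanol replicate 4 stood highest for Col1a2 at 14.4 CPM.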

How the results depend on the processing

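The sign of each 3p member depended on the scale. With miRNAs alone in the fit, the log2 fold changes of miR-29a-3p, miR-29b-3p and miR-29c-3p were 0.0565, 0.23 and 0.69 (edgeR), and with ethanol replicate 2 also left out, a setting chosen after seeing the data, 0.50, 0.23 and 0.83. The median miRNA was at -1.52 in the fit over all features and at -0.0957 with miRNAs alone. With ethanol replicates 3 and 4 left out, miR-29b-3p (-1.94) and miR-29c-3p (-2.06) passed (edgeR adjusted p = 0.0256 and 0.0188), which they did not without replicates 1 and 2 (-0.66 and -0.02); the cause was not tested. Leaving out 1 library gave -1.71 to -0.73 for miR-29a-3p, -1.79 to -0.91 for miR-29b-3p and -1.35 to -0.35 for miR-29c-3p.

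The log2 difference of the ratio of miR-29b-3p to miR-29a-3p ran from -0.51 to -0.16 over these omissions, that of miR-29b-3p to miR-29c-3p from -0.52 to -0.13, and that of miR-29c-3p to miR-29a-3p from -0.0497 (without ethanol replicate 4) to 0.65. It was 2.66 for miR-29b-3p to miR-29a-3p when the 0 was kept and 1 added to every count. With ethanol replicates 3 and 4 left out it was -0.68 for miR-29c-3p to miR-29a-3p, where replicate 1 was the only ethanol library with a ratio, and 0.0552 for miR-29b-3p to miR-29c-3p.

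The 1842 calls over all features became 1200 with DESeq2's size factors, 3144 with DESeq2, 8 with limma-voom, 3451 without a filter, 245 at a minimum count of 50, 818 without ethanol replicates 1 and 2, 3317 without ethanol replicates 3 and 4, and 3 to 3569 when 1 library was left out, with 10 or fewer when it was any control library. The 90 miRNA calls became 59 with library totals only, 1 with limma-voom, 161 without a filter, 43 at a minimum count of 50, 1 with miRNAs alone in the fit (with ethanol replicate 2 or without it), 35 without ethanol replicates 1 and 2, 155 without ethanol replicates 3 and 4, and 1 to 158 when 1 library was left out. Counting structural RNAs by their largest copy, also chosen after seeing the data, changed no direction or call of a member. Scaling by library totals only moved the median of all features to 0.25.

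The labels do not say whether replicate numbers pair the libraries. The deviations of same-numbered libraries correlated at 0.341, 0.209, -0.127 and -0.0201, and those of differently numbered libraries at -0.402 to 0.384. Whether the libraries are paired is therefore not known. With the number as a replicate block, the members were at -1.53, -1.20 and -0.80 (edgeR adjusted p = 0.711, 0.0948 and 0.267), the calls over all features were 3294 and those among miRNAs 126, miR-31-3p (0.0327) and miR-126a-5p (0.0172) passed, and the ratios of miR-29b-3p to miR-29a-3p, miR-29c-3p to miR-29a-3p and miR-29b-3p to miR-29c-3p differed by -0.27, 0.33 and -0.37. Among other features, the value changed sign for Lamc1 without ethanol replicate 2 (-0.0417) and without control replicate 1 (-0.0588), and for Dnmt3a without ethanol replicates 3 and 4 (-0.0399). With miRNAs alone it was 0.54 for miR-339-5p, 0.0649 for miR-126a-5p and 0.40 for mir-101b, and with ethanol replicate 2 also left out 0.27, 0.35 and 0.47, with 0.0333 for miR-31-3p. With 4 libraries a group, 1 of them with a doubtful 0, depth did not limit the 3p arms, whereas it limited the 5p arms to a few counts.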
